A study of Homo sapiens with 16 samples.

Results

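Antisense long noncoding RNAs (lncRNAs) that carry the name of the gene on the opposite strand were examined together with those sense genes in 293T cells depleted of SETD2 or hnRNP L. Of 58884 genes in the expression table, 1248 had names made of a gene symbol, -AS and a number. For 1229 of these the symbol before -AS was itself a gene in the table, 468 of the 1229 were listed at 0 in all 6 libraries, and 247 had a mean of at least 1 TPM over the 6 libraries (TPM, the length-scaled share of a library's transcripts). EPB41L4A-AS1 and OIP5-AS1 were left out by name, which left 245 antisense RNAs, each with its sense gene. They were thus selected on mean TPM measured in the same libraries as the comparisons, so an RNA that was high in a single group could enter through that group: 206 of the 245 had a mean of at least 1 TPM in every group, and 3 reached it in 1 group only, DNAJC27-AS1 in the scramble group and PROX1-AS1 and RAP2C-AS1 in the hnRNP L siRNA group. At the edge of the rule, HMGN3-AS1, DNAJC27-AS1 and RAB6C-AS1 lay just inside with means of 1.008, 1.015 and 1.018 TPM, and LIMD1-AS1, TNKS2-AS1 and FBXL19-AS1 lay just outside with 0.985, 0.980 and 0.978 TPM.

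The RNA came from 293T cells, a human embryonic kidney line that carries the SV40 large T antigen, transfected for 72 hours with a scramble siRNA (replicates 1 and 2), an siRNA against SETD2 (replicates 2 and 3) or an siRNA against hnRNP L (replicates 1 and 2). All 6 libraries came from otherwise wild type cells, after ribosomal RNA depletion and poly(A) enrichment, and the number of siRNA sequences per target is not given in the sources used here. The study's reporting summary calls the replicates of its sequencing experiments independent and biological, without saying what was repeated, and the labels add nothing to this. Values were TPM, which keep no read depth, so counting error is unknown.

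SETD2 writes trimethylation of lysine 36 on histone H3 behind elongating RNA polymerase II, and hnRNP L is an abundant nuclear protein that binds CA-rich RNA and regulates splicing. Antisense lncRNAs are transcribed from the strand opposite a known gene. Some start inside that gene, others start head to head with it from a shared CpG-rich promoter, and the level of a few is known to affect the sense gene in cis. Many are spliced and polyadenylated at low levels and are turned over by the nuclear exosome, the complex that degrades RNA from its 3' end.

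The siRNAs and the cell type were checked first. SETD2 measured 13.38 and 11.7 TPM in the scramble libraries and 4.24 and 4.91 TPM after SETD2 siRNA, and HNRNPL measured 341.04 and 457.16 TPM in the scramble libraries and 25.04 and 28.81 TPM after hnRNP L siRNA. The 8 genes taken as typical of 293T cells (VIM, KRT8, KRT18, NEFM, NEFL, PAX2, LHX1 and SALL1) were detected in every library, from 1.07 TPM for LHX1 to 940.78 TPM for VIM, and 6 genes of other cell types (ALB, HBB, PTPRC, CD3E, PECAM1 and INS) stayed between 0 and 0.4 TPM. The neurofilament genes differed between the groups: NEFM measured 201.58 and 183.74 TPM in the scramble libraries and 437.3 and 454.39 TPM after hnRNP L siRNA, and NEFL 64.61 and 70.07 TPM and then 109.22 and 129.77 TPM. Their part in the results for hnRNP L siRNA was not tested. Cell number and RNA content per cell cannot be told apart in such bulk samples.

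By gene ID, 244 of the 245 antisense RNAs were found in the GENCODE 44 annotation of hg38, all of them on the strand opposite their sense gene. DDIT4-AS1 was not found. The annotation called 237 of them lncRNAs, 6 pseudogenes and 1, NCBP2-AS2, a protein-coding gene. In 175 pairs the exons of the partners overlapped, in 31 only the gene bodies did, in 34 the bodies were apart with head-to-head start sites at most 2 kb from each other, and 4 pairs (FOXD2-AS1, MAFA-AS1, RAB6C-AS1 and SVIL-AS1) lay farther apart. Whether reads were assigned by strand is not given in the sources used here, and without strand the reads of overlapping exons cannot be told apart. Results that rest on overlapping pairs are therefore given beside those for pairs without exon overlap.

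The stretch between the start sites is shown for 4 head-to-head pairs that the results return to, because these partners share no bases and their reads can be told apart. They are read 5' to 3' on the strand of the antisense RNA from hg38, with CG dinucleotides in capitals.
UBAC2-AS1, chr13:99200758-99200773, minus strand: CGcaccCGgCGcatgc
TRIM52-AS1, chr5:181261151-181261168, plus strand: gaCGtctCGctcctgcac
NCBP2-AS2, chr3:196942595-196942673, plus strand: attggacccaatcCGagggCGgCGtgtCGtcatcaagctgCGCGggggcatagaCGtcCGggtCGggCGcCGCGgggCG
SLC2A1-AS1, chr1:42958894-42959048, plus strand: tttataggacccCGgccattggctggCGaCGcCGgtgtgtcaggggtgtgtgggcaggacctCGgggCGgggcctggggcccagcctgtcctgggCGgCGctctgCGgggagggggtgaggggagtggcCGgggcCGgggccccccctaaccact
Promoter windows from RefSeq (GRCh38.p14) were found for 196 of the 245 antisense RNAs. Their median GC content was 66.0% against 58.67% for all 35116 windows of the same length in that table, with a median of 26 CG dinucleotides against 14. Those 35116 windows were not limited to expressed genes, while the antisense RNAs were selected at 1 TPM, so the sets are unlike. Of the antisense RNAs called below after hnRNP L siRNA, the median was 29 for the 17 with a window that rose and 23 for the 9 that fell. The window of TOB1-AS1, the antisense RNA that fell most after hnRNP L siRNA, held 33.
TOB1-AS1, chr17:50866429-50866728, plus strand: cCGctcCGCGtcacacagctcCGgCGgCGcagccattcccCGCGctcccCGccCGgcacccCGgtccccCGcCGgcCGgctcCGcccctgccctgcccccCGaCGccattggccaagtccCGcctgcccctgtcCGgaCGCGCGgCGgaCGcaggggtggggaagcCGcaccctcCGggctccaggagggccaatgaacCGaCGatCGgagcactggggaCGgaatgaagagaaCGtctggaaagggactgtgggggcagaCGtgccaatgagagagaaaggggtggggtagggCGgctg

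Runs of at least 4 CA units on the strand of the RNA were counted over the gene body, introns included, because hnRNP L binds CA-rich RNA. Such a run was present in 147 of 244 antisense RNAs (60.2%) and in 9861 of 16207 tested genes of the annotation (60.8%). The longest run of 4 antisense RNAs is shown here in capitals with its flanks, to let the letters be read beside the changes reported below.
HIPK1-AS1, chr1:113928557-113928604, minus strand: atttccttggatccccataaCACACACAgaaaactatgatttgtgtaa
PROX1-AS1, chr1:213986490-213986545, minus strand: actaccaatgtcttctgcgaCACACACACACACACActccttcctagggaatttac
MEF2C-AS1, chr5:89299545-89299626, plus strand: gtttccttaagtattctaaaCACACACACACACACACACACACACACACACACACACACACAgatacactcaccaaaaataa
TOB1-AS1, chr17:50868841-50868894, plus strand: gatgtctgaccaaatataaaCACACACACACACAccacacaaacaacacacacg
The runs held 4, 8, 21 and 7 CA units. HIPK1-AS1, PROX1-AS1 and MEF2C-AS1 rose after hnRNP L siRNA and TOB1-AS1 fell, so a run was found on either side. Of the antisense RNAs called below, 11 of 18 that rose and 3 of 11 that fell held a run, with gene bodies of 23.2 and 7.46 kb at the median, and the count of runs grows with the length searched. A run is a description of the sequence and not a measured binding site.

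The antisense RNAs were mostly the weaker partner. Their mean TPM over the 6 libraries had a median of 3.18 and ran from 1.008 to 67.5, while the sense genes had a median of 11.2 TPM. In 166 pairs the antisense mean lay below the sense mean and in 79 above it. The 5 most abundant were THAP9-AS1, TRIM52-AS1, MAPKAPK5-AS1, PITPNA-AS1 and VPS9D1-AS1. THAP9-AS1 measured 78.77 and 69.06 TPM in the scramble libraries, 55.16 and 58.26 TPM after SETD2 siRNA and 66.99 and 76.6 TPM after hnRNP L siRNA. Its sense gene THAP9, a transposase-derived gene, stayed between 2.9 and 3.93 TPM. TRIM52-AS1 measured 46.2 and 57.73 TPM in the scramble libraries, 40.75 and 46.53 TPM after SETD2 siRNA, and 69.56 and 65.11 TPM after hnRNP L siRNA. In both pairs the RNA named as antisense was several times more abundant than the gene it was named for, in every library.

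Changes were estimated with limma on log2(TPM + 0.5), where the added constant shrinks the fold of weakly expressed RNAs. The fit covered 16300 genes with a mean of at least 0.5 TPM, among them all 245 antisense RNAs and 221 of their sense genes, and the other 24 sense genes were under that mean. A gene was called changed at a Benjamini-Hochberg adjusted p under 0.05 over all 16300 genes and a fold change above 1.5. The log2 ratio of antisense to sense TPM was formed within each library and tested between the groups at the same cut-offs. This fit covered 4095 opposite-strand pairs of the annotation, 221 of them the pairs described here.

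After SETD2 siRNA no antisense RNA and no sense gene passed the test against scramble. With limma, 0 of 245 antisense RNAs, 0 of 221 sense genes and 0 of 221 ratios were called, where 0.104% of all tested genes and 0.244% of all opposite-strand ratios were. At an unadjusted p under 0.05 there were 26 antisense RNAs (10.6%), 30 sense genes (13.6%) and 27 ratios (12.2%), beside 13.1% of all tested genes. The median log2 change was -0.03 for antisense RNAs and 0.01 for sense genes, and 0.01 for all genes. The lowest estimates belonged to RCC2-AS1 and PTOV1-AS2, which are named here after their values were seen. PTOV1-AS2 measured 4.34 and 4.83 TPM in the scramble libraries and 1.9 and 1.69 TPM after SETD2 siRNA, groups that did not overlap (log2 change -1.15, standard error 0.209, adjusted p = 0.105). RCC2-AS1 measured 2.16 and 2.98 TPM in the scramble libraries. In SETD2 siRNA replicate 2 it was listed at 0 and in replicate 3 at 0.94 TPM. Both were called lower when only protein-coding and lncRNA genes were tested, and without SETD2 siRNA replicate 3 the count was 1.

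After hnRNP L siRNA, 19 antisense RNAs rose and 11 fell, and 1 of their sense genes was called with them, as lower. The sense estimate was below 0 beside 16 of the 19 that rose and in 8 of 10 tested pairs of those that fell. The 19 that rose are 7.76% of the 245, where 1.75% of all tested genes, 1.04% of protein-coding genes and 6.13% of lncRNA genes rose. The 11 that fell are 4.49%, where 5.01% of all genes and 4.46% of lncRNA genes fell. The shares of the antisense RNAs were thus near those of all tested lncRNA genes, a set that holds most of the antisense RNAs themselves. Of the sense genes, 0 rose and 11 of 221 fell (4.98%), where 5.37% of protein-coding genes fell, again near the background. At an unadjusted p under 0.05 there were 90 antisense RNAs (36.7%) and 66 sense genes (29.9%), beside 28.4% of all tested genes, 31.2% of lncRNA genes and 29.4% of protein-coding genes. Among the 70 antisense RNAs without exon overlap in the annotation, DDIT4-AS1 included as not found, 4 rose and 2 fell. The median log2 change was 0.03 for antisense RNAs, -0.12 for sense genes and -0.08 for all genes.

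**Figure D1:**
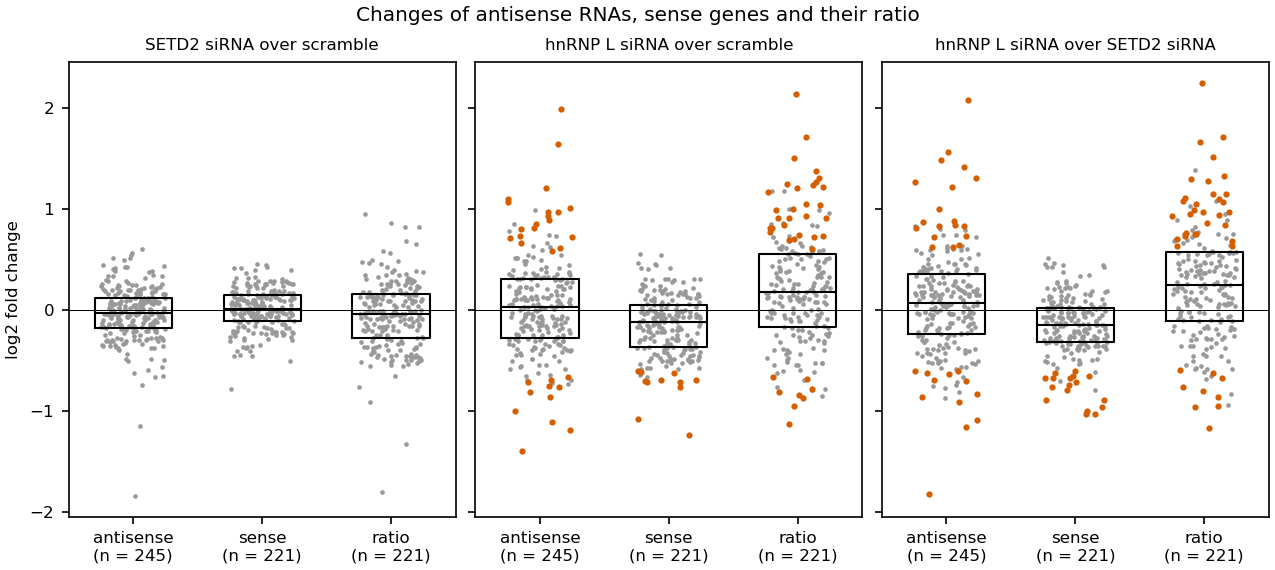
Log2 fold changes of the 245 antisense RNAs, the 221 tested sense genes and the 221 antisense to sense ratios in the 3 comparisons; each point is a gene or pair, boxes span the quartiles with the median as a line, and orange points were called. After hnRNP L siRNA the antisense RNAs spread to both sides of 0, called sense genes lay below 0, and the ratios leaned upward with a median of 0.18.

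The split between higher and lower depends on how libraries are scaled. Median-ratio scaling moved the median log2 change of all genes from -0.084 to 0.001 and that of the antisense RNAs from 0.028 to 0.116. The 19 that rose and 11 that fell became 25 and 9 with median-ratio scaling, 27 and 8 with quantile normalization, and 15 and 15 when the TPM were rescaled without mitochondrially encoded genes. For the sense genes, 0 that rose and 11 that fell became 2 and 7 with median-ratio scaling and 1 and 5 with quantile normalization. The counts also rest on each library. Without hnRNP L siRNA replicate 1 or 2, 2 and 4 antisense RNAs were called, and without scramble replicate 1 or 2, 7 and 15. HIPK1-AS1 and ELOA-AS1 were called under all 20 alternatives run for them, with log2 changes between 1.735 and 2.255 and between 1.044 and 1.375.

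HIPK1-AS1 rose most. It lies on chromosome 1 from 113924000 to 113929495 on the minus strand, and its exons overlap those of HIPK1, a nuclear kinase that binds homeodomain proteins, by 172 bases, with start sites 171 bases apart. It measured 1.14 and 1.85 TPM in the scramble libraries, 1.34 TPM in both SETD2 siRNA libraries, and 7.48 and 7.17 TPM in the hnRNP L siRNA libraries. Only the hnRNP L siRNA libraries were high, and no other library reached 2 TPM. The log2 change was 1.99 (standard error 0.196, adjusted p = 0.00161). HIPK1 itself measured 10.13 and 10.31 TPM in the scramble libraries and 8.76 and 9.57 TPM after hnRNP L siRNA (log2 change -0.15, standard error 0.158, adjusted p = 0.575). The ratio of HIPK1-AS1 to HIPK1 rose by 2.15 on the log2 scale (standard error 0.243, adjusted p = 0.00385).

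PROX1-AS1 overlaps PROX1, a homeobox transcription factor of lymphatic vessels, and ELOA-AS1 overlaps ELOA, which encodes a subunit of the elongin elongation factor. PROX1-AS1 measured 0.32 and 0.75 TPM in the scramble libraries, 0.72 and 0.66 TPM after SETD2 siRNA, and 2.52 and 2.84 TPM after hnRNP L siRNA (log2 change 1.65, adjusted p = 0.00654). ELOA-AS1 measured 5.83 and 7.46 TPM, 6.74 and 6.34 TPM, and 15.8 and 16.03 TPM in the same order (log2 change 1.21, standard error 0.139, adjusted p = 0.00277). In both cases the scramble and SETD2 siRNA values lay together and the hnRNP L siRNA values above all of them. PROX1-AS1 had a mean under 1 TPM in the scramble and SETD2 siRNA groups and entered the set only through the hnRNP L siRNA libraries, so the rule favoured its rise. PROX1 stayed between 0.8 and 1.15 TPM in the 6 libraries. ELOA measured 22.12 and 23.9 TPM in the scramble libraries and 25.72 and 27.71 TPM after hnRNP L siRNA (log2 change 0.21, adjusted p = 0.26), and ELOA was among 3 sense genes with an estimate above 0 beside the 19 antisense RNAs that rose.

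MEF2C-AS1 spans chromosome 5 from 88883328 to 89466398 and is the antisense partner of MEF2C, a MADS-box transcription factor of muscle and heart. It measured 1.15 and 1.43 TPM in the scramble libraries, 0.95 and 1.24 TPM after SETD2 siRNA, and 3.08 and 3.59 TPM after hnRNP L siRNA (log2 change 1.10, standard error 0.193, adjusted p = 0.012). MEF2C ranged from 5.59 to 12.16 TPM with overlapping groups. UBAC2-AS1 starts 17 bases from UBAC2, which encodes a ubiquitin-binding protein of the endoplasmic reticulum, and the sequence between them is the first of those shown above. It measured 0.94 and 1.35 TPM in the scramble libraries, 0.75 and 0.91 TPM after SETD2 siRNA, and 2.47 and 3.13 TPM after hnRNP L siRNA (log2 change 1.01, adjusted p = 0.022). Outside the hnRNP L siRNA libraries UBAC2-AS1 was thus near the bound of 1 TPM, so the rule favoured its rise. UBAC2 moved the other way, from 74.07 and 77.67 TPM in the scramble libraries to 51.49 and 55.72 TPM, at a fold under the 1.5 required for a call (log2 change -0.50, adjusted p = 0.0166). Exons of this pair do not overlap, so its reads can be told apart without strand.

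Of the others that rose, HDAC4-AS1 (log2 change 1.08) belongs to a class IIa histone deacetylase, RAP2C-AS1 (0.98), which like PROX1-AS1 entered the set only through the hnRNP L siRNA libraries, to a small Ras-like GTPase, DDIT4-AS1 (0.97) to a stress-induced inhibitor of mTORC1 and NAPA-AS1 (0.93) to alpha-SNAP of vesicle fusion. IDH1-AS1 (0.90), the partner of cytosolic isocitrate dehydrogenase, measured 3.41 and 4.02 TPM in the scramble libraries and 6.72 and 7.97 TPM after hnRNP L siRNA, but also 7.33 TPM in SETD2 siRNA replicate 2. TMEM44-AS1 (0.86) and ARHGEF26-AS1 (0.81) completed the 12 largest. HDAC4-AS1 likewise reached 1.8 TPM in SETD2 siRNA replicate 3 beside 2.09 and 3.11 TPM after hnRNP L siRNA, so the separation from SETD2 siRNA was narrower for these RNAs than for HIPK1-AS1. The other 7 that rose had log2 changes from 0.59 to 0.80, the largest of them TBX2-AS1. In the scramble libraries HDAC4-AS1 measured 0.91 and 0.99 TPM and ARHGEF26-AS1 0.88 and 0.95 TPM, so the rule favoured their rise too.

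**Figure D2:**
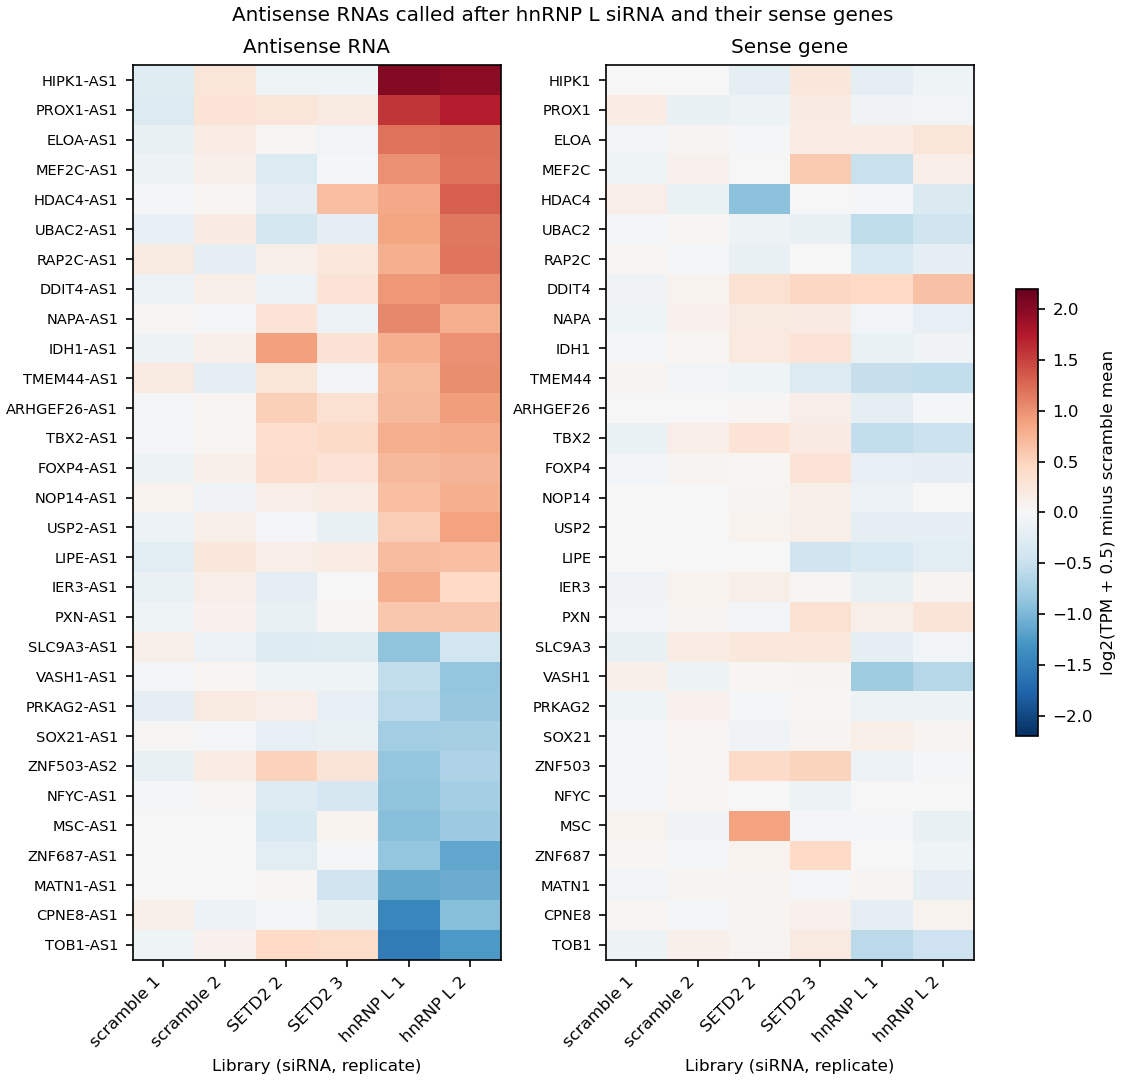
Heat map of log2(TPM + 0.5) minus the mean of the scramble libraries for the 30 antisense RNAs called after hnRNP L siRNA (left) and their sense genes (right), 1 column per library and sorted by log2 change. The antisense RNAs changed in both hnRNP L siRNA libraries, from 1.99 for HIPK1-AS1 to -1.40 for TOB1-AS1, while most sense genes stayed near the scramble mean.

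Among the 11 that fell, TOB1-AS1 fell most. It lies on chromosome 17 from 50866679 to 50910774 opposite TOB1, an antiproliferative protein that recruits the CCR4-NOT deadenylase. It measured 1.98 and 2.36 TPM in the scramble libraries, 3.13 and 3.01 TPM after SETD2 siRNA, and 0.42 and 0.61 TPM after hnRNP L siRNA (log2 change -1.40, standard error 0.190, adjusted p = 0.00491). The hnRNP L siRNA values were the only ones under 1 TPM. TOB1 measured 29.86 and 35.24 TPM in the scramble libraries and 21.41 and 23.46 TPM after hnRNP L siRNA (log2 change -0.52, adjusted p = 0.0284), short of the fold required, and the ratio fell by 0.87 (adjusted p = 0.0279). CPNE8-AS1, whose exons do not overlap those of the copine gene CPNE8, measured 2.5 and 2.02 TPM in the scramble libraries and 0.52 and 0.93 TPM after hnRNP L siRNA (log2 change -1.19, adjusted p = 0.0137). CPNE8 stayed between 6.96 and 8.56 TPM in all libraries.

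MATN1-AS1 (log2 change -1.11), the partner of a cartilage matrilin that was itself at 0.19 to 0.32 TPM, and ZNF687-AS1 (-0.996), the partner of a zinc finger gene, fell next. Partners of transcription factors followed with MSC-AS1 (-0.86; musculin), NFYC-AS1 (-0.81; a subunit of the CCAAT-binding factor NF-Y), ZNF503-AS2 (-0.77; a zinc finger repressor) and SOX21-AS1 (-0.75; an HMG-box factor). PRKAG2-AS1 (-0.71) belongs to a regulatory subunit of AMP-activated kinase and SLC9A3-AS1 (-0.66) to a sodium-proton exchanger. NFYC stayed between 38.93 and 43.3 TPM in all 6 libraries while NFYC-AS1 went from 1.6 and 1.66 TPM in the scramble libraries to 0.66 and 0.77 TPM after hnRNP L siRNA. TOB1-AS1, CPNE8-AS1, MATN1-AS1 and MSC-AS1 were, like NFYC-AS1, under 1 TPM in both hnRNP L siRNA libraries. They entered the set through the other groups, so the rule favoured their fall. VASH1-AS1 was the only antisense RNA called together with its sense gene in this comparison. It measured 7.24 and 7.66 TPM in the scramble libraries and 4.97 and 3.9 TPM after hnRNP L siRNA (log2 change -0.70, adjusted p = 0.0206). VASH1, which encodes the tubulin carboxypeptidase vasohibin 1, measured 12.54 and 10.57 TPM and then 6.48 and 7.27 TPM (log2 change -0.71, adjusted p = 0.0135), so both fell and their ratio did not move (0.01, standard error 0.196). Their exons overlap by 1044 bases.

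The sense genes that fell were led by NNT, the mitochondrial transhydrogenase that makes NADPH. NNT measured 25.32 and 22.84 TPM in the scramble libraries, 20.27 and 21 TPM after SETD2 siRNA, and 9.36 and 10.45 TPM after hnRNP L siRNA (log2 change -1.24, standard error 0.114, adjusted p = 0.00121). NNT-AS1 measured 5.88 and 5.38 TPM in the scramble libraries and 3.85 and 4.28 TPM after hnRNP L siRNA (log2 change -0.43, adjusted p = 0.0779), a smaller drop, and the ratio rose by 0.81 (adjusted p = 0.0122). ATP2A1, the calcium pump of fast muscle, had a log2 change of -1.08 (adjusted p = 0.0473), with 3.53 TPM in scramble replicate 1 and 1.64 TPM in replicate 2. The forkhead genes FOXD3 (-0.76) and FOXD2 (-0.69), TMEM9B (-0.71), the receptor phosphatase gene PTPRG (-0.71), VASH1 and the phosphatidylinositol transfer gene PITPNA (-0.69) fell as well. PITPNA measured 49.36 and 43.38 TPM in the scramble libraries and 26.79 and 30.44 TPM after hnRNP L siRNA, while PITPNA-AS1 measured 30.66 and 42.52 TPM and then 52.57 and 51.56 TPM. The order of the partners was thus turned: PITPNA was the more abundant in both scramble libraries and PITPNA-AS1 in both hnRNP L siRNA libraries. The ratio rose by 1.21 (standard error 0.200, adjusted p = 0.0115), and PITPNA-AS1 alone did not pass (log2 change 0.52, adjusted p = 0.0519). With 1 hnRNP L siRNA library left out, 1 sense gene was called in either case, without scramble replicate 1 there were 2, and without SETD2 siRNA replicate 2 or 3, 5.

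CCDC18-AS1 showed the same exchange. It lies on chromosome 1 from 93262186 to 93346025 on the minus strand, and 72 bases of its exons overlap those of CCDC18. It measured 13.9 and 12.25 TPM in the scramble libraries, 9.19 and 10.45 TPM after SETD2 siRNA, and 14.66 and 16.27 TPM after hnRNP L siRNA. CCDC18 measured 16.35 and 13.59 TPM, 16.03 and 15.18 TPM, and 9.11 and 10.17 TPM in the same order. CCDC18 was thus low only after hnRNP L siRNA and CCDC18-AS1 low only after SETD2 siRNA, and the antisense RNA exceeded the sense gene only after hnRNP L siRNA. Against scramble, CCDC18 fell after hnRNP L siRNA (log2 change -0.61, standard error 0.129, adjusted p = 0.0227). CCDC18-AS1 itself was not called against scramble after either siRNA. Its log2 change after hnRNP L siRNA lay between 0.147 and 0.342 under the alternatives run. The antisense to sense ratio was higher by 0.84 after hnRNP L siRNA (adjusted p = 0.0103), and after SETD2 siRNA it was -0.46 (adjusted p = 0.185), each with a standard error of 0.131.

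**Figure D3:**
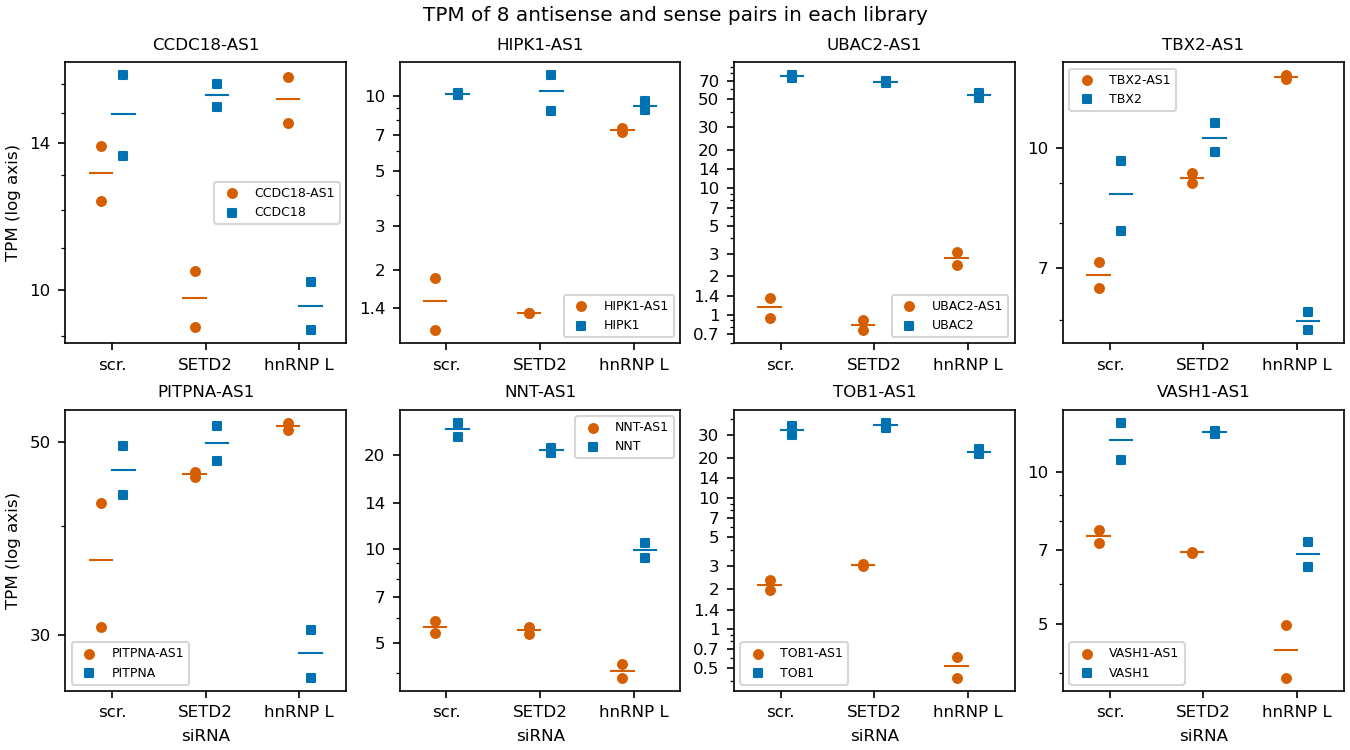
TPM on a log axis of 8 antisense RNAs (orange circles) and their sense genes (blue squares) in the 2 libraries of each siRNA, with group means as lines. In the CCDC18, TBX2 and PITPNA pairs the antisense RNA lay below the sense gene in both scramble libraries and above it in both hnRNP L siRNA libraries, while both VASH1 partners fell.

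A ratio of the partners within a library does not depend on how libraries are scaled, apart from the added constant. After hnRNP L siRNA, 29 of 221 ratios rose and 8 fell, where 11.2% of all opposite-strand ratios were called. The 29 are 13.1% of these pairs and the 8 are 3.62%. Among the 3874 other opposite-strand pairs, taken as the weaker over the stronger partner, 4.98% rose and 5.91% fell. These hold genes of any type, while the pairs described here mostly set a lncRNA over a protein-coding gene, whichever was stronger. Singly, 6.13% of lncRNA genes and 1.04% of protein-coding genes rose. The sets of pairs are thus unlike, and their difference was not tested. The counts were 29 and 8 with median-ratio scaling as well. In 15 of the 29 the antisense RNA itself was called higher and in 4 the sense gene was called lower, and the sense estimate was below 0 in 28 of 29. A low sense estimate raises the ratio, so the last count follows in part from the selection. Over all 221 sense genes the median was -0.12. Of the 156 pairs with exon overlap, whose reads cannot be told apart without strand, 24 ratios rose and 6 fell, and of the 65 pairs without it 5 rose and 2 fell. Most of the ratios that rose thus came from overlapping pairs, which were also most of the pairs tested. With hnRNP L siRNA replicate 1 or 2 left out, 5 ratios were called in either case, all higher, and without scramble replicate 1, 12.

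The largest ratios after HIPK1-AS1 were PROX1-AS1 (log2 change of the ratio 1.72), UBAC2-AS1 (1.51), TMEM44-AS1 (1.38), TBX2-AS1 (1.31), MEF2C-AS1 (1.27), RAP2C-AS1 (1.26) and HDAC4-AS1 (1.24). For PROX1-AS1 and RAP2C-AS1, which reached 1 TPM only in the hnRNP L siRNA group, the rule favoured the rise. This holds also for UBAC2-AS1, which was near 1 TPM in the scramble and SETD2 siRNA libraries. HDAC4-AS1, under 1 TPM in both scramble libraries, was favoured likewise. The bodies of TBX2-AS1 and TBX2 overlap but share no exon bases. TBX2-AS1 measured 6.6 and 7.12 TPM in the scramble libraries, 9.02 and 9.29 TPM after SETD2 siRNA, and 12.27 and 12.43 TPM after hnRNP L siRNA (log2 change 0.80, adjusted p = 0.00604). TBX2, a T-box repressor, measured 7.82 and 9.63 TPM, 10.76 and 9.88 TPM, and 5.81 and 6.14 TPM (log2 change after hnRNP L siRNA -0.50, adjusted p = 0.0491). The antisense RNA was the weaker partner in both scramble libraries and exceeded TBX2 in both hnRNP L siRNA libraries.

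**Figure D4:**
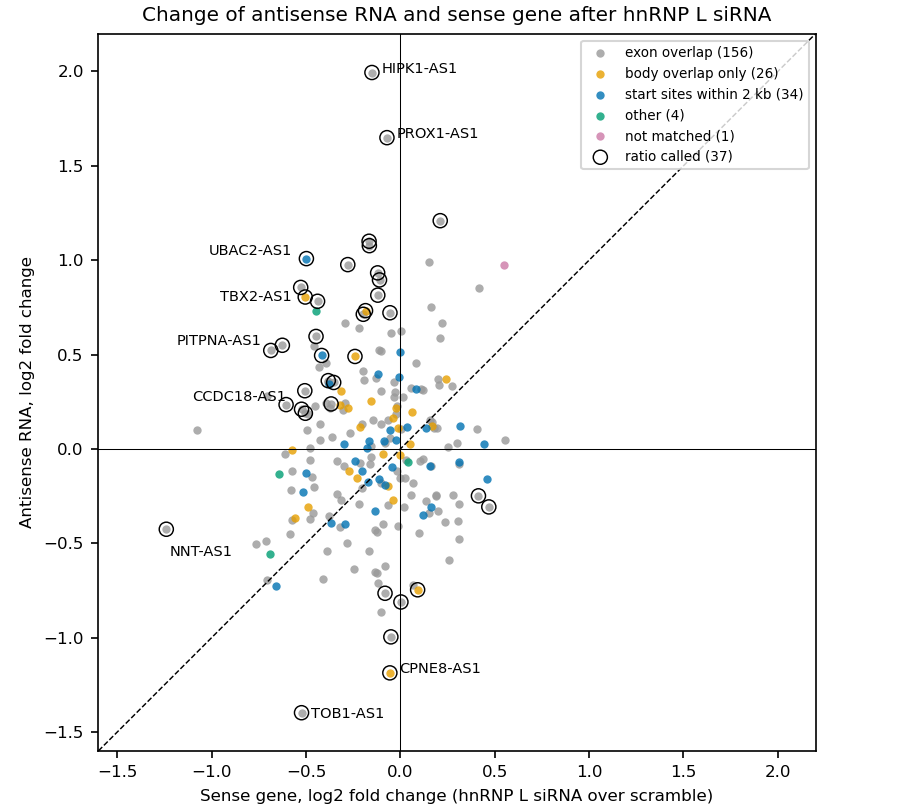
Log2 fold change after hnRNP L siRNA of each antisense RNA against that of its sense gene for 221 pairs, coloured by how the genes lie to each other, with called ratios circled and equal change as a dashed line. Points spread along the antisense axis with little slope (r = 0.05 over 221 pairs), and most circled pairs lie above the dashed line.

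Over the 221 pairs the antisense and sense changes after hnRNP L siRNA were nearly unrelated, with Pearson's r of 0.05, given as a description since all points share the same libraries. The changes had the same sign in 104 of 221 pairs. For the 156 pairs with exon overlap r was 0.04, for the 26 pairs with overlapping bodies only it was -0.11, and for the 34 head-to-head pairs 0.02. Of the 34 head-to-head pairs, UBAC2-AS1 was the only antisense RNA called, 0 sense genes were called, and the ratios of UBAC2-AS1 and SLC2A1-AS1 rose. SLC2A1-AS1 shares its start region with the glucose transporter gene SLC2A1. It measured 1.43 and 1.52 TPM in the scramble libraries and 2.09 and 2.49 TPM after hnRNP L siRNA, while SLC2A1 measured 44.34 and 45.13 TPM and then 31.28 and 35.6 TPM. Neither partner passed alone, and the ratio rose by 0.91 (adjusted p = 0.0216).

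Groups that do not overlap were more frequent than calls. After hnRNP L siRNA, both libraries lay above both scramble libraries for 75 of 245 antisense RNAs (30.6%) and below them for 68 (27.8%), where 18.8% and 37.8% of all tested genes did so. For sense genes the counts were 41 of 221 above (18.6%) and 98 below (44.3%). Of the 16300 tested genes 12802 were protein coding, and the shares for lncRNA genes alone were not computed. The shares of the antisense RNAs are therefore not set against those of other lncRNA genes here.

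Compared directly, hnRNP L siRNA against SETD2 siRNA gave 19 antisense RNAs higher and 12 lower, where 2.15% of all tested genes and 8.14% of lncRNA genes were higher and 4.69% and 4.85% lower. This comparison uses the same hnRNP L siRNA libraries as the preceding one, so the counts are not independent of it. Of the sense genes, 0 were higher and 17 of 221 lower, where 4.92% of protein-coding genes were lower. HIPK1-AS1 (log2 change 2.09), ARF4-AS1 (1.49), PROX1-AS1 (1.42), UBAC2-AS1 (1.31), MEF2C-AS1 (1.27) and ELOA-AS1 (1.22) were among the highest. RCC2-AS1 was called too, against the group in which 1 library was listed at 0. ARF4-AS1, the partner of a small GTPase of the Golgi, measured 1.01 and 0.75 TPM after SETD2 siRNA and 3.12 and 3.61 TPM after hnRNP L siRNA. The scramble libraries measured 0.93 and 2.14 TPM, the lower of them within the SETD2 siRNA values. SH3BP5-AS1 (1.01), DDIT4-AS1 (0.88), ADAMTS19-AS1 (0.87), NAPA-AS1 (0.85) and RBM26-AS1 (0.84) completed the 12 largest. For ADAMTS19-AS1, at 1.33 and 0.97 TPM in the scramble and 0.61 and 0.99 TPM in the SETD2 siRNA libraries, the rule favoured the rise. The same holds for SH3BP5-AS1, at 0.8 and 0.73 TPM after SETD2 siRNA, and for ARF4-AS1 and RCC2-AS1 with the values given above. Without SETD2 siRNA replicate 2 or 3, 3 and 6 antisense RNAs were called, and without hnRNP L siRNA replicate 1 or 2, 3 and 6.

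The lower antisense RNAs were TOB1-AS1 (log2 change -1.82), ZNF503-AS2 (-1.16), CPNE8-AS1 (-1.09), MATN1-AS1 (-0.91), ZNF687-AS1 (-0.86), CD27-AS1 (-0.83), NCBP2-AS2 (-0.70), PRKAG2-AS1 (-0.69), NIFK-AS1 (-0.63), FOXD2-AS1 (-0.62), TENM3-AS1 (-0.60) and VASH1-AS1 (-0.60). For TOB1-AS1, CPNE8-AS1 and MATN1-AS1, under 1 TPM after hnRNP L siRNA, the rule favoured the fall here as well. NCBP2-AS2, which the annotation calls protein coding, measured 21.88 and 22.27 TPM in the scramble libraries, 28.32 and 28.2 TPM after SETD2 siRNA, and 16.73 and 17.73 TPM after hnRNP L siRNA. Its values after the siRNAs thus lay on opposite sides of scramble. NCBP2, a subunit of the nuclear cap-binding complex that starts 80 bases away, stayed between 71.62 and 89.98 TPM. TRIM52-AS1, the second most abundant of all, was higher after hnRNP L siRNA than after SETD2 siRNA (log2 change 0.62, adjusted p = 0.0204).

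In 4 pairs both partners were called between hnRNP L siRNA and SETD2 siRNA. TOB1-AS1 with TOB1 (-0.66), FOXD2-AS1 with FOXD2 (-0.96) and VASH1-AS1 with VASH1 (-0.76) were lower together, and the CCDC18 pair moved in opposite directions, CCDC18-AS1 higher (log2 change 0.63, adjusted p = 0.0181) and CCDC18 lower (-0.67, adjusted p = 0.0158). Its ratio rose by 1.299 (standard error 0.131, adjusted p = 0.00382). FOXD2-AS1, which shares no bases with FOXD2, measured 18.59 and 18.7 TPM after SETD2 siRNA and 11.78 and 12.1 TPM after hnRNP L siRNA, and FOXD2 3.07 and 2.8 TPM and then 1.25 and 1.27 TPM. The lowest sense genes were FOXD3 (-1.03), NNT (-1.02), TMEM9B (-1.002), FOXD2, the linker histone gene H1FX (-0.89) and the bZIP factor gene MAFA (-0.89). Of the ratios, 30 rose and 9 fell, where 11.6% of all opposite-strand ratios were called. Among the other opposite-strand pairs, a set unlike these pairs in gene type, 6.14% rose and 5.16% fell. HIPK1-AS1 (log2 change of the ratio 2.25), MEF2C-AS1 (1.72), UBAC2-AS1 (1.66), PROX1-AS1 (1.52), ARF4-AS1 (1.33) and SH3BP5-AS1 (1.29) led with CCDC18-AS1, and the largest drop was TOB1-AS1 (-1.16). With 1 SETD2 or hnRNP L siRNA library left out, between 2 and 5 sense genes and between 5 and 15 ratios were called.

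Genes that act on antisense or paired RNA were counted from lists. Of 19 genes for nuclear RNA decay (the exosome and its nuclear cofactors), limma called 0 after SETD2 siRNA and 0 after hnRNP L siRNA, with 5 and 2 at an unadjusted p under 0.05. Among all tested genes 13.1% and 28.4% were under that p, and 0.104% were called after SETD2 siRNA. The largest values after SETD2 siRNA were -0.62 for ZFC3H1 (adjusted p = 0.194) and 0.38 for ZC3H18 (adjusted p = 0.199), and the log2 changes after hnRNP L siRNA lay between -0.35 and 0.28, with the largest sizes at -0.35 for ZFC3H1 and 0.28 for EXOSC4 (adjusted p = 0.16 and 0.224). Between hnRNP L and SETD2 siRNA, 1 of the 19 was called, where 4.69% of all tested genes were lower and 2.15% higher. This was EXOSC3, a cap subunit of the exosome, lower after hnRNP L siRNA (log2 change -0.59, adjusted p = 0.0181). It measured 50.24 and 57.73 TPM in the scramble libraries, 71.46 and 67.47 TPM after SETD2 siRNA, and 49.93 and 42.29 TPM after hnRNP L siRNA. Against scramble its log2 change after hnRNP L siRNA was -0.23 (adjusted p = 0.248). Of 18 genes listed for the handling of paired RNA, 2 rose and 1 fell after hnRNP L siRNA, where 1.75% of all tested genes rose and 5.01% fell. AGO2, the Argonaute that cleaves targets of small RNAs, measured 8.3 and 9.49 TPM in the scramble libraries and 18.48 and 24.03 TPM after hnRNP L siRNA (log2 change 1.20, adjusted p = 0.00327). AGO3 had a log2 change of 0.82 (adjusted p = 0.00772). XRN2, a 5' to 3' exonuclease of transcription termination rather than a gene for paired RNA, measured 50.94 and 54.69 TPM and then 17.95 and 19.25 TPM (log2 change -1.48, adjusted p = 0.000412). After SETD2 siRNA limma called 0 of the 18, with 1 at an unadjusted p under 0.05, and the largest values were -0.45 for DGCR8 (adjusted p = 0.244) and -0.26 for DICER1 (adjusted p = 0.503). The median over the list after hnRNP L siRNA was -0.02 beside -0.08 for all genes.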

How the data were processed

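The authors aligned paired-end reads to hg38 with Ensembl 96 gene models using STAR 2.6.1c and computed TPM with RSEM 1.3.0, and the TPM table they deposited is the only file used. TPM values keep no read depth, so the precision from depth is unknown. The ChIP-seq samples were not used here.

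Antisense RNAs, sense genes and lists were chosen with earlier results of these data known. Partners were located in GENCODE 44 by gene ID, a later release than the authors' models. Log2(TPM + 0.5) was fitted with limma 3.58.1 (R 4.3.3), with a variance trend, on 16300 genes with a mean of at least 0.5 TPM, all 6 libraries and 3 contrasts. Log2 ratios of opposite-strand pairs were fitted likewise, with the variance trend on the mean level of the weaker partner. The authors' methods name edgeR, which needs counts. Calls required an adjusted p under 0.05 (Benjamini-Hochberg, two-sided) and a fold above 1.5. The fit was tested on simulated data. Sequences were read from hg38 with pysam 0.24.0.

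Named were CCDC18-AS1, called antisense RNAs (the 12 largest per direction), pairs with both partners called, the 8 largest called ratios and the 6 largest called sense changes per comparison, the 5 most abundant antisense RNAs, and called list genes, or the 2 largest changes where none was called. The closing section gives the alternatives tried. Others were named after their values were seen.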

Additional observations from a re-analysis of the deposited data

How the results depend on the processing

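Replicate numbers shared by scramble and hnRNP L siRNA did not mark a known batch, and same-numbered libraries deviated from their group means with r = -0.13. With the replicate block, 18 antisense RNAs, 3 sense genes and 0 ratios were called after hnRNP L siRNA by limma (74 ratios at an unadjusted p under 0.05), and with the hnRNP L siRNA numbers crossed, an alternative chosen after seeing the data, 59 ratios were. For hnRNP L siRNA against scramble and against SETD2 siRNA, respectively, 3 and 4 antisense RNAs were called with no filter on TPM, 9 and 11 at a fold above 2, 18 and 20 at a mean of at least 2 TPM, and 6 and 6 without exon overlap. Sense genes numbered 2 and 3 with no filter, 29 and 30 with no fold required and 2 and 3 at a fold above 2. Against scramble they also numbered 7 with a pseudocount of 1, 6 with quantile normalization and 4 with only the 2 groups compared, and against SETD2 siRNA 11 with median-ratio scaling and 11 with quantile normalization. Ratios numbered 15 and 15 at a fold above 2, and 7 and 6 for pairs without exon overlap, also added after seeing the data. After SETD2 siRNA, 2 antisense RNAs were called among protein-coding and lncRNA genes only. The causes were not tested. With 1 library left out at a time, and a lone library assumed to vary like the others, calls of antisense RNAs ranged from 0 to 1 after SETD2 siRNA, from 2 to 20 after hnRNP L siRNA and from 3 to 27 between the siRNAs, sense genes from 1 to 8 after hnRNP L siRNA and from 2 to 15 between the siRNAs, and ratios from 0 to 1, from 5 to 33 and from 5 to 36. Of 3397 alternative values for 180 single results, 2352 kept direction and call, 1043 kept direction only, and 2 reversed: CCDC18 after SETD2 siRNA was -0.032 without mitochondrial genes and ranged from -0.066, without scramble replicate 2, to 0.192 with 1 library left out. Antisense RNAs near 1 TPM carry the least signal, and with 2 libraries per group and no depth their counting error is unknown.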

Other observations

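Of the 8 pairs whose ratio fell after hnRNP L siRNA, 4 had a sense estimate above 0. GATA2-AS1 and TP73-AS1, from 2 of these 4 pairs, are named after their values were seen. GATA2-AS1 measured 8.25 and 9.87 TPM in the scramble libraries and 7.39 and 7.01 TPM after hnRNP L siRNA. GATA2, a zinc finger transcription factor of blood progenitors, measured 19.49 and 20.54 TPM and then 29.3 and 26.53 TPM (log2 change 0.47, adjusted p = 0.0324 from limma), under the fold of 1.5. The ratio fell by 0.78 (adjusted p = 0.0155), with neither partner called alone. TP73-AS1 and TP73, a relative of p53, moved apart like the GATA2 pair, with a ratio that fell by 0.66 (adjusted p = 0.0269). The TP73-AS1 values were 17.3 and 16.44 TPM in the scramble libraries and 14.15 and 14.08 TPM after hnRNP L siRNA, and TP73 measured 4.59 and 4.6 TPM and then 5.98 and 6.61 TPM.

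TMEM161B-AS1 and TMEM161B were close in abundance and moved apart in the other direction. The antisense RNA measured 23.42 and 22.06 TPM in the scramble libraries and 28.38 and 30.35 TPM after hnRNP L siRNA, and TMEM161B measured 20.97 and 19.37 TPM and then 14.38 and 16.38 TPM. Neither was called alone, and the log2 ratio changed by 0.74 (limma, adjusted p = 0.00822, standard error 0.107).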
